A study of Mus musculus with 2 samples.

Results

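The genes described here are 39 components of the TGF-beta and BMP, Wnt and Notch signalling pathways. They were chosen by name, with earlier results of these data known, and all were found among the 22020 gene symbols of the expression table. They comprise 17 genes of the TGF-beta and BMP pathway, 11 of the Wnt pathway and 11 of the Notch pathway. RNA was sequenced from LSK cells, the sorted Lin- c-Kit+ Sca-1+ fraction in which blood stem cells and early progenitors are found, from 8-week-old C57BL/6 mice of 2 genotypes. The Utx/p53 DKO library came from double knockout mice lacking Utx (Kdm6a, whose product removes methyl groups from lysine 27 of histone H3) and p53 (Trp53). The p53 KO library came from mice labelled as lacking p53 alone, which the sample titles call WT. By the labels both genotypes lack p53, and neither library is from a wild-type mouse. The deleting strain, the deleted exons and the number of mice pooled are not given in the sources used here. There was 1 library per genotype, so no difference below has a replicate check, no test between genotypes was possible, and every value describes these 2 libraries only.

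Each of the pathways carries a signal from the cell surface to the nucleus and has a role in blood formation. TGF-beta and BMP ligands bring type I and type II receptor kinases together, which phosphorylate receptor-regulated SMAD proteins that enter the nucleus with Smad4; TGF-beta holds blood stem cells in quiescence. Wnt proteins bind Frizzled receptors with Lrp5 or Lrp6 and stop a destruction complex of Apc, Axin and Gsk3b from degrading beta-catenin, which then joins TCF/LEF factors on DNA. Notch receptors are cut after binding Jagged or Delta ligands, and the freed intracellular part joins Rbpj and Mastermind proteins on target genes; Notch1 signalling commits early progenitors to the T lineage.

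The read totals in the table's header were 19926294 for the Utx/p53 DKO library and 17088105 for the p53 KO library. Levels are RPKM, reads scaled by transcript length and read total, and differences are on the log2(RPKM + 1) scale, Utx/p53 DKO minus p53 KO, which understates those of low genes. Genes averaging 1 RPKM or more across the libraries are called measured, and a measured gene is called higher or lower where that difference reaches 2-fold. Kdm6a was at 1.26 RPKM in the Utx/p53 DKO library and 5.32 RPKM in the p53 KO library, a difference of -1.49. Trp53 transcripts were at 12.9 RPKM (456 reads) in the Utx/p53 DKO library and 19.4 RPKM (587 reads) in the p53 KO library. With the deleted exons not known, these levels do not bear out the labelled loss of p53 in either library. Marker genes of blood cell types differed between the libraries. Of 12 stem cell and sort gate markers, 8 were lower and none higher in the Utx/p53 DKO library, with summed levels of 509.9 RPKM in that library and 1140 RPKM in the p53 KO library. Ly6a, which encodes the Sca-1 of the sort gate, was at 281 RPKM in the Utx/p53 DKO library and 255 RPKM in the p53 KO library. Kit, the other positive marker of the gate, was 4.01-fold lower, with 16.0 RPKM in the Utx/p53 DKO library and 64.2 RPKM in the p53 KO library. Of 16 measured granulocyte and monocyte markers, 14 were higher and 2 lower, with summed levels of 71705 RPKM in the Utx/p53 DKO library and 6365 RPKM in the p53 KO library. Of 10 measured erythroid markers, 9 were lower and 0 higher, and of 12 B cell and lymphoid progenitor markers, 11 were lower and 1 was higher. Of 12 T and NK cell markers, 7 were higher and 3 lower, and of 9 macrophage and dendritic cell markers, 5 were higher and 1 was lower. Of 4 megakaryocyte markers, 1 was higher and 2 were lower, and of 3 stromal markers, 1 was higher and 1 lower. Fewer cells of a type and less RNA per cell cannot be told apart in such bulk libraries.

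Of the 39 genes, 25 were measured and 14 lay below a mean of 1 RPKM. Among the 25, 4 were lower by at least 2-fold on the log2(RPKM + 1) scale in the Utx/p53 DKO library. Of the others, 0 were higher and 21 differed by less. The share that was lower, 16%, was near the 13.5% of all 11356 measured genes, and 6.6% of all measured genes were higher. On the plain RPKM ratio, 8 of the 25 (32%) were at 0.5 or less, against 19.3% of all measured genes. Only Dtx4 (4%) was at 2 or more, against 8.19% of all measured genes. The median difference of the 25 genes was -0.54, against -0.24 over all measured genes. By pathway the median was -0.61 for the 14 measured TGF-beta and BMP genes, -0.43 for the 7 measured Wnt genes and -0.21 for the 4 measured Notch genes. Of the 25 genes, 22 had a difference below 0, which was the case for 65.2% of all measured genes.

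**Figure D1:**
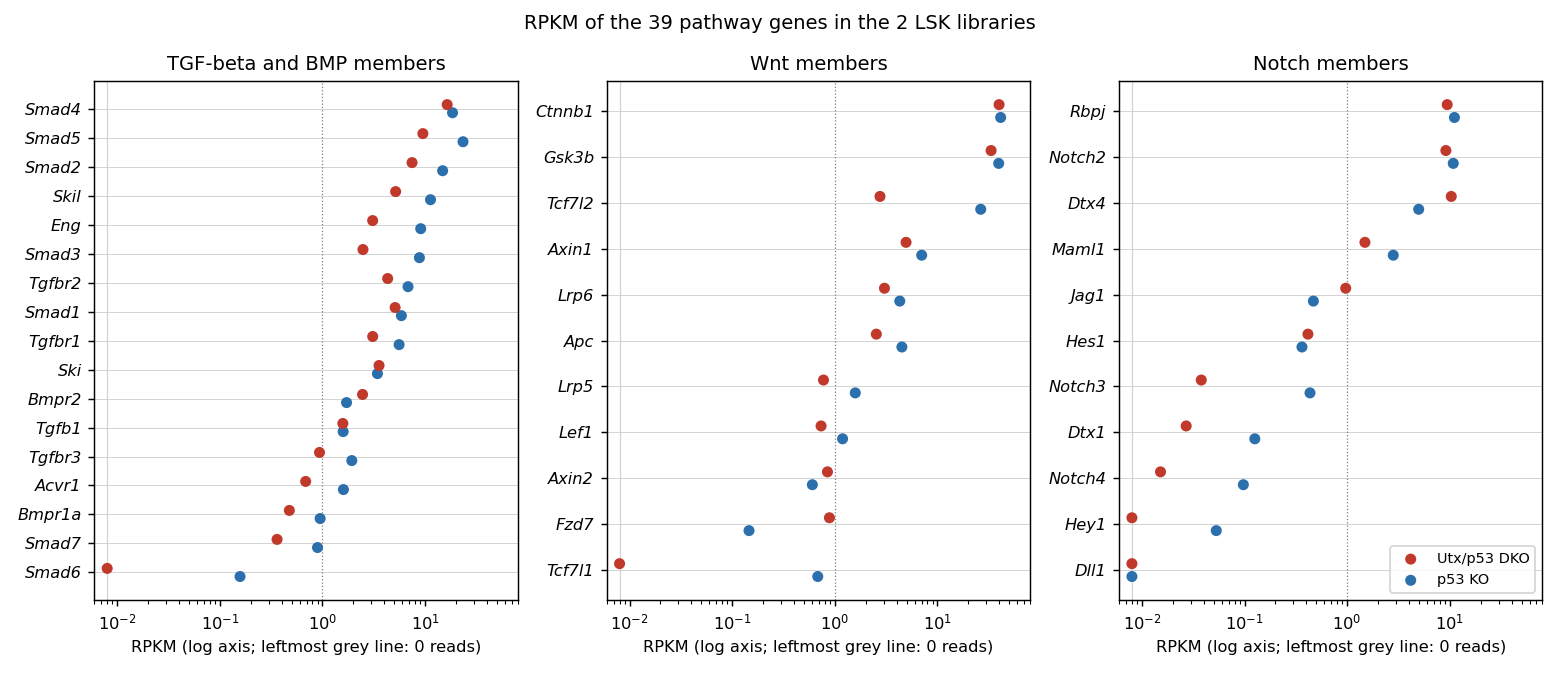
RPKM of each of the 39 genes on a log axis, with the Utx/p53 DKO library in red and the p53 KO library in blue, in a panel per pathway; the dotted line marks 1 RPKM and points on the leftmost grey line had 0 reads. Tcf7l2 has the widest gap among the measured genes, and Dtx4 and Bmpr2 are the measured genes with a visibly higher red point.

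The 4 genes that were lower by the 2-fold rule were Tcf7l2, Smad3, Eng and Smad5. Tcf7l2, a TCF/LEF factor that carries beta-catenin to DNA, was at 2.76 RPKM (220 reads) in the Utx/p53 DKO library and 26.4 RPKM (1808 reads) in the p53 KO library. It was 9.58-fold lower, with an exact 95% counting interval of 8.33 to 11.1, and its log2 difference was -2.87. Smad3, which relays TGF-beta and activin signals, was at 2.48 RPKM (252 reads) in the Utx/p53 DKO library and 8.82 RPKM (767 reads) in the p53 KO library. It was 3.55-fold lower (95% interval 3.07 to 4.11), with a log2 difference of -1.49. Eng, which encodes the TGF-beta co-receptor endoglin of endothelial and stem cells, was at 3.09 RPKM (211 reads) in the Utx/p53 DKO library and 9.08 RPKM (532 reads) in the p53 KO library. It was 2.94-fold lower (95% interval 2.50 to 3.46), with a log2 difference of -1.30. Smad5, which relays BMP signals, was at 9.53 RPKM (1250 reads) in the Utx/p53 DKO library and 23.5 RPKM (2639 reads) in the p53 KO library. It was 2.46-fold lower (95% interval 2.30 to 2.64), with a log2 difference of -1.22. The intervals cover counting error only. The genes nearest to the 2-fold line on its inner side were Skil (-0.996), Dtx4 (0.92) and Smad2 (-0.90).

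Upstream sequences are shown for the members past the 2-fold rule that hold letters of a motif bound by a factor of the same pathways. That left 3 genes, so a match was a condition of being shown and not a result. The sequences are the 250 bases before the gene's start, from RefSeq on GRCm38.p6, 5′ to 3′ on the gene's strand. Capitals mark matches on either strand to CTTTGA (TCF/LEF), TGGGAA (RBPJ), CAGAC (SMAD3 and SMAD4) or GGCGCC (BMP SMADs), and no match overlapped another.
Tcf7l2: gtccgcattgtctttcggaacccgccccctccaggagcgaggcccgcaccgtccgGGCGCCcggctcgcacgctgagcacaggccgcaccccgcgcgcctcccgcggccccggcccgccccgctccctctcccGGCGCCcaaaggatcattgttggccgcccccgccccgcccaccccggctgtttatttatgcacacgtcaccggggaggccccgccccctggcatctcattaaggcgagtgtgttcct
Smad3: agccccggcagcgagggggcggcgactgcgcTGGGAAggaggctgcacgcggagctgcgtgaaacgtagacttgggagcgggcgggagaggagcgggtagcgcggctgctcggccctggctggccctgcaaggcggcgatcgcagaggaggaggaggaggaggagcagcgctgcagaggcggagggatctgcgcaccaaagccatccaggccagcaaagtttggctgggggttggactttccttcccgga
Eng: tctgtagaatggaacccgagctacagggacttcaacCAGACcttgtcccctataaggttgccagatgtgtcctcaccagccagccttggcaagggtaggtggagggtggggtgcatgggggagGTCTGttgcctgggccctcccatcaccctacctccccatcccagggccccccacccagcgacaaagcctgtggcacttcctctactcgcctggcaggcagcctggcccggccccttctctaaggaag
The Tcf7l2 stretch lies at chr19:55741560-55741809 on the plus strand and holds GGCGCC at 195 and 117 bases before the start. The Smad3 stretch lies at chr9:63757995-63758244 on the minus strand and holds TGGGAA at 219 bases before the start. The Eng stretch lies at chr2:32646345-32646594 on the plus strand and holds CAGAC at 214 bases and its reverse complement at 127 bases before the start. Of 32851 such stretches in the RefSeq table, 9.59% hold GGCGCC, 21.6% TGGGAA, 42.2% CAGAC and 13.8% CTTTGA on either strand. CTTTGA was in none of the stretches shown, and none of the motifs was in that of Smad5, on chromosome 13. A match is a run of letters and was not tested as a binding site.

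Among the ligands and receptors of the TGF-beta and BMP pathway, Eng was the one gene lower by the 2-fold rule. The others were within 2-fold on the log2(RPKM + 1) scale or below the filter. The ligand gene Tgfb1 was at 1.58 RPKM in the Utx/p53 DKO library and 1.59 RPKM in the p53 KO library, a ratio of 0.993 with a 95% interval of 0.686 to 1.44. The type II receptor gene Tgfbr2 was at 4.32 RPKM in the Utx/p53 DKO library and 6.83 RPKM in the p53 KO library. The type I receptor gene Tgfbr1 was at 3.09 RPKM in the Utx/p53 DKO library and 5.59 RPKM in the p53 KO library. The 2 receptor kinases had ratios with overlapping intervals, at 0.633 (0.555 to 0.721) for Tgfbr2 and 0.553 (0.482 to 0.634) for Tgfbr1. Tgfbr3, which encodes the ligand-presenting co-receptor betaglycan, was at 0.937 RPKM (113 reads) in the Utx/p53 DKO library and 1.93 RPKM (200 reads) in the p53 KO library. Its ratio was 0.485 (0.381 to 0.613). In the p53 KO library Eng was the most abundant of these 4 receptor and co-receptor genes, with 38.7% of their summed RPKM. In the Utx/p53 DKO library Eng made up 27% and Tgfbr2 was the most abundant, at 37.8%, while Eng and Tgfbr1 could not be ordered, since the counting interval of each level held the other's.

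Bmpr2 was the one measured receptor gene of the list with a ratio above 1, and it was within 2-fold. This BMP type II receptor gene was at 2.46 RPKM (172 reads) in the Utx/p53 DKO library and 1.72 RPKM (103 reads) in the p53 KO library, a ratio of 1.43 (95% interval 1.12 to 1.85). The type I receptor genes of BMP ligands had ratios below 1, but neither was past the 2-fold rule. Acvr1 was at 0.687 RPKM (38 reads) in the Utx/p53 DKO library and 1.60 RPKM (76 reads) in the p53 KO library, a ratio of 0.429 (0.283 to 0.641). Bmpr1a, below the filter, was at 0.476 RPKM (52 reads) in the Utx/p53 DKO library and 0.950 RPKM (89 reads) in the p53 KO library, a ratio of 0.501 (0.349 to 0.713).

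The SMAD genes differed in how far apart the libraries were. Smad4, the partner shared by both arms, was at 16.4 RPKM in the Utx/p53 DKO library and 18.5 RPKM in the p53 KO library, a ratio of 0.887 (0.814 to 0.966). Smad1 was at 5.11 RPKM in the Utx/p53 DKO library and 5.88 RPKM in the p53 KO library, with a ratio of 0.869 whose interval, 0.739 to 1.02, includes 1. Within the BMP arm the gap lay in Smad5, and the level of Smad5 over that of Smad1 was 1.86 in the Utx/p53 DKO library and 3.99 in the p53 KO library. In the TGF-beta and activin arm Smad2 was at 7.47 RPKM in the Utx/p53 DKO library and 14.8 RPKM in the p53 KO library, a ratio of 0.504 (0.442 to 0.573). Its interval lies above that of Smad3 (0.243 to 0.325), so the level of Smad2 over that of Smad3 was 3.01 in the Utx/p53 DKO library and 1.68 in the p53 KO library. Smad4 was the most abundant SMAD in the Utx/p53 DKO library and Smad5 in the p53 KO library. The counting intervals of the levels of Smad4 and Smad5 were apart in each library.

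The inhibitors of the pathway were a mixed group. Skil, which encodes the SMAD corepressor SnoN, was at 5.17 RPKM (678 reads) in the Utx/p53 DKO library and 11.3 RPKM (1271 reads) in the p53 KO library, a ratio of 0.457 (0.416 to 0.503). Its relative Ski was at 3.56 RPKM (388 reads) in the Utx/p53 DKO library and 3.44 RPKM (321 reads) in the p53 KO library, a ratio of 1.04 (0.892 to 1.21). The intervals of these corepressor genes did not overlap. The inhibitory SMADs, which are induced by the pathways they restrain, were both below the filter. Smad7 had 32 reads in the Utx/p53 DKO library and 68 in the p53 KO library, a ratio of 0.404 (0.256 to 0.623). Smad6 had 0 reads in the Utx/p53 DKO library and 8 in the p53 KO library. Set against a chosen floor of 3 reads for the count of 0, it was 3.11-fold lower. The exact 95% interval of the ratio, which also takes in the counting error of the 8 reads, reaches a gap as small as 1.99-fold.

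**Figure D2:**
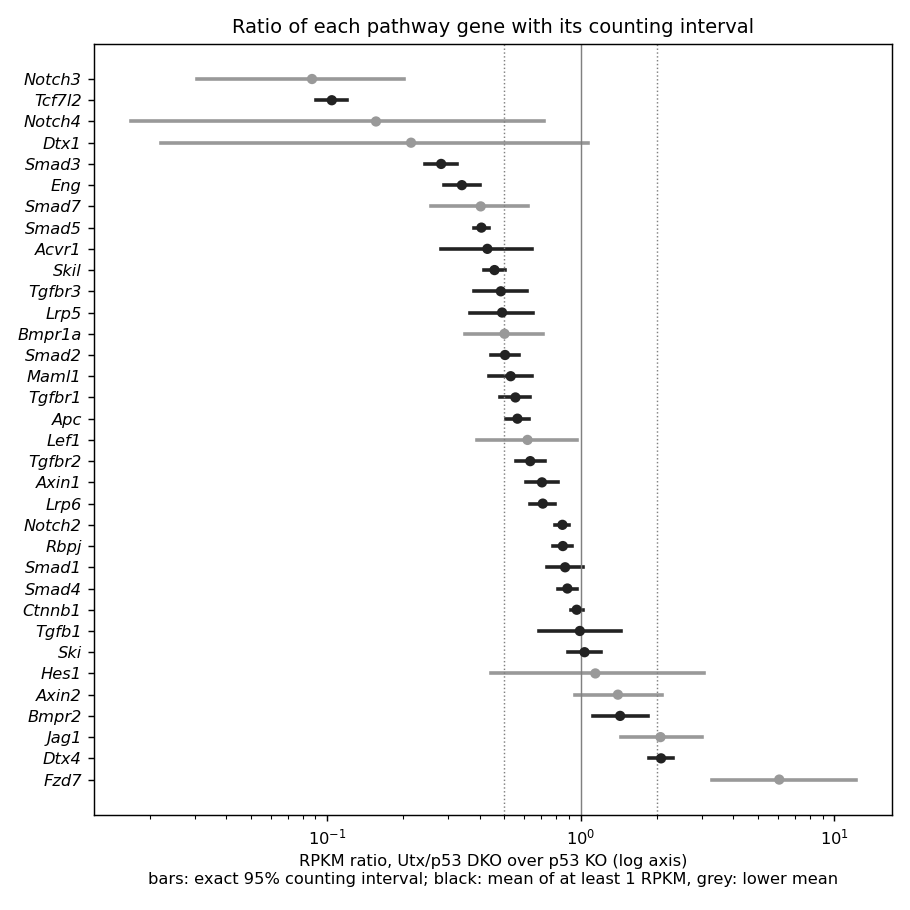
RPKM ratio, Utx/p53 DKO over p53 KO, on a log axis with its exact 95% counting interval, for the genes with reads in the Utx/p53 DKO library and a read count that could be recovered; dotted lines mark 0.5 and 2, and grey genes lay below a mean of 1 RPKM. Tcf7l2 has a narrow interval near 0.104, Fzd7 a wide interval around 6.07.

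Of 24 measured genes with recovered read counts, 18 had a ratio interval wholly below 1 and 2 wholly above 1. Over the 11078 measured genes with recovered reads, 53.4% lay wholly below 1 and 26.3% wholly above. The shares among the 24 were 75% and 8.33%. The genes wholly above 1 were Bmpr2 and Dtx4. Those whose interval included 1 were Tgfb1, Smad1, Ski and Ctnnb1.

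In the Wnt pathway beta-catenin and its kinase differed little between the libraries, and the widest gap was in a nuclear factor. Ctnnb1, which encodes beta-catenin, was at 39.9 RPKM in the Utx/p53 DKO library and 41.3 RPKM in the p53 KO library, a ratio of 0.965 (0.913 to 1.02). The kinase gene Gsk3b was at 33.3 RPKM in the Utx/p53 DKO library and 39.5 RPKM in the p53 KO library; its read count could not be recovered, so it has no interval. These were the most abundant of the 39 genes in the Utx/p53 DKO library and in the p53 KO library. The scaffold gene Axin1 was at 4.95 RPKM in the Utx/p53 DKO library and 7.03 RPKM in the p53 KO library, a ratio of 0.704 (0.611 to 0.811). The tumour suppressor gene Apc was at 2.54 RPKM in the Utx/p53 DKO library and 4.51 RPKM in the p53 KO library, a ratio of 0.563 (0.509 to 0.624), and the intervals of both scaffold genes overlap. Axin2, an inhibitor that is itself a target gene of Wnt signalling, was below the filter at 0.849 RPKM (72 reads) in the Utx/p53 DKO library and 0.605 RPKM (44 reads) in the p53 KO library. Its ratio of 1.40 had an interval of 0.951 to 2.09, which includes 1.

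The co-receptor genes Lrp5 and Lrp6 had ratios below 1 and were within 2-fold on the log2(RPKM + 1) scale. Lrp6 was at 3.05 RPKM in the Utx/p53 DKO library and 4.30 RPKM in the p53 KO library, a ratio of 0.709 (0.634 to 0.794). Lrp5 was at 0.776 RPKM (80 reads) in the Utx/p53 DKO library and 1.58 RPKM (140 reads) in the p53 KO library, a ratio of 0.490 (0.368 to 0.650). The receptor gene Fzd7 was below the filter but had the largest ratio of the 39 genes. It had 85 reads (0.887 RPKM) in the Utx/p53 DKO library and 12 reads (0.146 RPKM) in the p53 KO library, a ratio of 6.07 (3.30 to 12.2).

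The other Frizzled genes, named after their values were seen, went in opposite directions at low levels. Fzd1 had 94 reads in the Utx/p53 DKO library and 4 in the p53 KO library, a ratio of 20.2 (7.61 to 75.5). Fzd8 had 95 reads in the Utx/p53 DKO library and 18 in the p53 KO library, a ratio of 4.53 (2.72 to 7.96). Fzd6 had 14 reads in the Utx/p53 DKO library and 118 in the p53 KO library, a ratio of 0.102 (0.0540 to 0.178). The 10 Frizzled genes summed to 4.03 RPKM in the Utx/p53 DKO library and 4.55 RPKM in the p53 KO library. Fzd8, Fzd1 and Fzd7 made up 35.3%, 26.7% and 22% of the sum in the Utx/p53 DKO library, against 6.91%, 1.17% and 3.21% in the p53 KO library, where Fzd6 made up 37.2%.

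The TCF/LEF genes showed the widest gap. The 4 genes of the family summed to 5.82 RPKM in the Utx/p53 DKO library and 30.1 RPKM in the p53 KO library. Tcf7l2 took 47.4% of that sum in the Utx/p53 DKO library and 87.8% in the p53 KO library. All 8 Tcf7l2 transcripts in the table had log2 differences between -2.90 and -2.86, but they share most of their reads and are not separate measurements. Tcf7l1, a family member that mainly represses, had 0 reads in the Utx/p53 DKO library and 32 reads (0.683 RPKM) in the p53 KO library. It was 12.4-fold lower when set against 3 reads, and the exact 95% interval of its ratio reaches a gap as small as 9.54-fold. Lef1 was at 0.735 RPKM (36 reads) in the Utx/p53 DKO library and 1.19 RPKM (50 reads) in the p53 KO library, a ratio of 0.617 (0.391 to 0.967). Tcf7, which is no member of the list and encodes the T lineage factor TCF-1, was at 2.32 RPKM (103 reads) in the Utx/p53 DKO library and 1.79 RPKM (68 reads) in the p53 KO library. Its ratio of 1.30 (0.947 to 1.79) has an interval that does not overlap that of Tcf7l2 and includes 1. The level of Ctnnb1 over that of Tcf7l2 was 14.5 in the Utx/p53 DKO library and 1.56 in the p53 KO library.

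**Figure D3:**
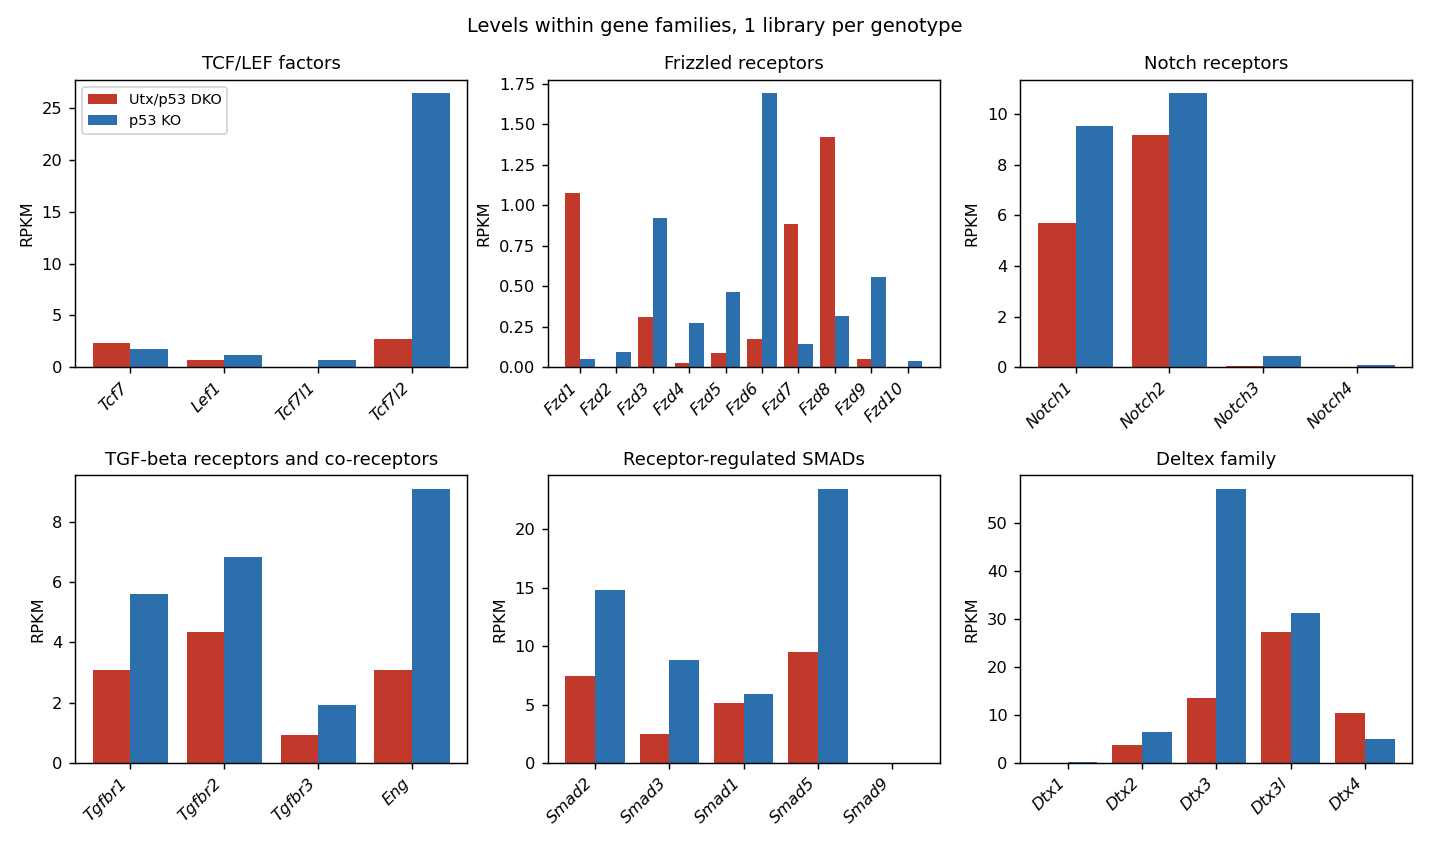
RPKM of the genes of 6 families, with the Utx/p53 DKO library (red, left bar) and the p53 KO library (blue, right bar) and no error bars because there was 1 library each; each panel has its own axis from 0. Tcf7l2 exceeds the rest of its family in the p53 KO library, and the Frizzled genes with the tall red bars (Fzd8, Fzd1 and Fzd7) are not those with the tall blue ones.

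In the Notch pathway Notch2 and Rbpj had ratios near 0.85, and the Mastermind genes had lower ratios. Notch2 was at 9.17 RPKM in the Utx/p53 DKO library and 10.8 RPKM in the p53 KO library, a ratio of 0.848 (0.796 to 0.904). Rbpj, the DNA-binding factor of the pathway, was at 9.44 RPKM in the Utx/p53 DKO library and 11.1 RPKM in the p53 KO library, with almost the same ratio of 0.851 (0.779 to 0.929). The coactivator gene Maml1 was at 1.49 RPKM (165 reads) in the Utx/p53 DKO library and 2.81 RPKM (267 reads) in the p53 KO library, a ratio of 0.530 (0.434 to 0.646), below those of Rbpj and Notch2. Maml3, chosen with its value known, was at 2.60 RPKM in the Utx/p53 DKO library and 5.86 RPKM in the p53 KO library, a ratio of 0.445 (0.389 to 0.508). The 3 Mastermind genes summed to 12.02 RPKM in the Utx/p53 DKO library and 27.5 RPKM in the p53 KO library. Notch1, which is no member of the list, was at 5.69 RPKM in the Utx/p53 DKO library and 9.53 RPKM in the p53 KO library, so Notch2 was the most abundant receptor in each library.

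Dtx4 had the largest positive difference of the 25 measured genes. This deltex-type ubiquitin ligase gene was at 10.3 RPKM (1189 reads) in the Utx/p53 DKO library and 4.98 RPKM (491 reads) in the p53 KO library, a ratio of 2.08 (1.87 to 2.31). Its log2(RPKM + 1) difference of 0.92 was short of the 2-fold rule as deposited but past it after centring on the all-gene median (1.16) and with the authors' gfold constants (1.48). Of the deltex family, Dtx1, a known target of Notch in lymphocytes, had 2 reads in the Utx/p53 DKO library and 8 in the p53 KO library, a ratio of 0.214 with an interval of 0.0222 to 1.07. Dtx4 made up 18.9% of the summed RPKM of the 5 deltex genes in the Utx/p53 DKO library and 4.98% in the p53 KO library.

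The remaining Notch receptor, ligand and target genes had few reads. Notch3 had 6 reads in the Utx/p53 DKO library and 59 in the p53 KO library, 11.5-fold lower (95% interval 4.97 to 32.5). Notch4, a receptor of endothelial cells, had 2 reads in the Utx/p53 DKO library and 11 in the p53 KO library, a ratio of 0.156 (0.0168 to 0.714). The ligand gene Jag1 was at 0.968 RPKM (106 reads) in the Utx/p53 DKO library and 0.469 RPKM (44 reads) in the p53 KO library, a ratio of 2.07 (1.44 to 3.01). Dll1 had 0 reads in either library. The classical Notch target genes were barely detected and no difference was detectable at this depth. Hes1 had 12 reads in the Utx/p53 DKO library and 9 in the p53 KO library, a ratio of 1.14 (0.442 to 3.07), and Hey1 had 0 reads in the Utx/p53 DKO library and 2 in the p53 KO library.

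Since Eng, Notch4 and Jag1 are also used by endothelial cells, endothelial markers were examined beside them. Of 13 such markers 6 were measured, of which 2 were higher (Pecam1 and Flt1) and 4 lower, and the summed level was 80.4 RPKM in the Utx/p53 DKO library and 116 RPKM in the p53 KO library. The defining gene Cdh5 was at 0.151 RPKM in the Utx/p53 DKO library and 0.352 RPKM in the p53 KO library, and Kdr was at 0.166 RPKM in the Utx/p53 DKO library and 0.462 RPKM in the p53 KO library. No marker of the list was at 0 in the Utx/p53 DKO library. Cldn5 and Sox17 were at 0 in the p53 KO library but had only 2 and 4 reads in the Utx/p53 DKO library. Of the lower markers, Egfl7 was at 8.49 RPKM in the Utx/p53 DKO library and 64.7 RPKM in the p53 KO library. Of the higher markers, Pecam1 was at 49.4 RPKM in the Utx/p53 DKO library and 16.1 RPKM in the p53 KO library. Its ratio was 3.07 (2.85 to 3.31), and that of Flt1 was 11.9 (9.88 to 14.5). Pecam1 was the largest part of the summed level in the Utx/p53 DKO library, and Egfl7 in the p53 KO library. Of the 12 stem cell and sort gate markers, 8 were lower, and Ly6a, Slamf1, Cd48 and Gata2 were within 2-fold. Flt3 had the largest difference of that list, at 1.83 RPKM in the Utx/p53 DKO library and 24.5 RPKM in the p53 KO library. Meis1 was at 15.7 RPKM in the Utx/p53 DKO library and 134 RPKM in the p53 KO library, and Cd34 was at 49.1 RPKM in the Utx/p53 DKO library and 348 RPKM in the p53 KO library. The part of cell makeup in the differences of the pathway genes was not tested.

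The direction of small differences depended on how the libraries were scaled. RPKM scales by read totals alone, and the authors' gfold constants move every ratio up by 0.60 on the log2 scale. Of the 25 measured genes, 15 (60%) had the same sign under 5 scalings, 13 below 0 and 2 above, compared with the same sign for 53.9% of all measured genes. With the gfold constants 2 of the 25 genes were lower, Tcf7l2 (-2.40) and Smad3 (-1.04), and 1 was higher, Dtx4, beside 6.27% lower and 16.5% higher of all measured genes. Tcf7l2 and Smad3 were past 2-fold under each of the 5 scalings. Eng (-0.83) and Smad5 (-0.66) were not past it with those constants, and Smad5 also missed it after centring (-0.98). Axin1, Lrp6, Gsk3b, Notch2, Rbpj, Smad1, Smad4, Ctnnb1, Tgfb1 and Ski changed sign with the scaling. In the authors' deposited table the GFOLD value, a cautious log2 fold change, was below 0 for 9, above 0 for 9 and 0 for 7 of the 25 genes, while 22.9% of all measured genes were below 0 and 54.5% above. In the authors' deposited table the GFOLD value was -2.42 for Tcf7l2, -0.98 for Smad3, -0.68 for Eng, -0.58 for Smad5, 1.48 for Dtx4 and 2.13 for Fzd7.

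**Figure D4:**
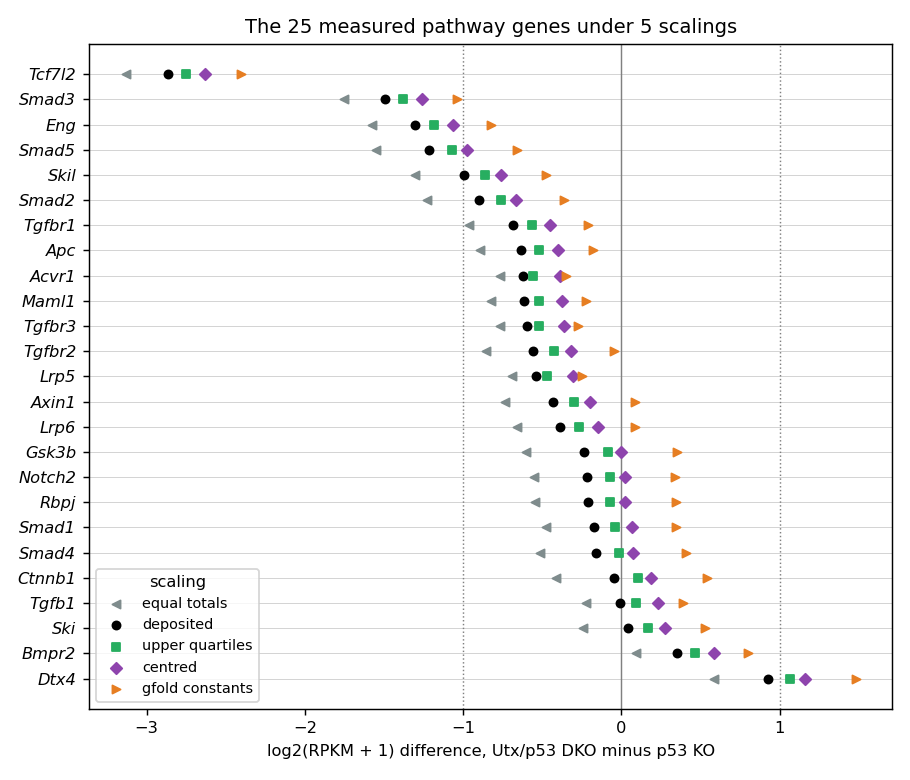
Difference in log2(RPKM + 1), Utx/p53 DKO minus p53 KO, of the 25 measured genes under 5 scalings, with dotted lines at 2-fold. Tcf7l2 and Smad3 stay left of the lower line under every scaling shown, and the genes from Axin1 to Ski have points on both sides of 0.

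Other genes of the pathways, from lists of 46 TGF-beta and BMP, 71 Wnt and 47 Notch genes, were set beside the 39, with 6.6% of all measured genes higher, 13.5% lower and a median of -0.24 as their background. Of 19 measured TGF-beta and BMP genes, 4 were higher and 5 lower in the Utx/p53 DKO library (median -0.30). The extremes were Fst, which encodes the activin antagonist follistatin, at 12.3 RPKM in the Utx/p53 DKO library and 0.751 RPKM in the p53 KO library, a ratio of 16.4 (11.3 to 24.5), and the BMP target gene Id3, with a ratio of 0.118 (0.0825 to 0.164). Id1, another BMP target gene, went the other way, at a ratio of 6.60 (3.69 to 12.8). The related Id2, outside the rule for naming and chosen after its value was seen, was also higher. It was at 54.1 RPKM in the Utx/p53 DKO library and 20.2 RPKM in the p53 KO library, a ratio of 2.67 (2.40 to 2.98). The SMAD corepressor gene Tgif2 was at 0.827 RPKM in the Utx/p53 DKO library and 6.40 RPKM in the p53 KO library, 7.73-fold lower. Activin receptor gene Acvr1b, outside the rule for naming and chosen after its value was seen, was at 1.27 RPKM in the Utx/p53 DKO library and 6.07 RPKM in the p53 KO library.

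Of 25 measured Wnt genes, 0 were higher and 5 lower (median -0.36). The largest differences were those of the Wnt target genes Myc (log2 difference -2.20) and Ccnd1 (-1.31), of Znrf3, a ubiquitin ligase that removes Frizzled receptors (-1.34), and of the beta-catenin coactivator gene Bcl9 (-1.28). Znrf3 was at 5.36 RPKM in the Utx/p53 DKO library and 15.1 RPKM in the p53 KO library, and Bcl9 was at 0.464 RPKM in the Utx/p53 DKO library and 2.55 RPKM in the p53 KO library. Of 33 measured Notch genes, 0 were higher and 5 lower (median -0.19). Dtx3, a deltex relative of Dtx4, was at 13.4 RPKM in the Utx/p53 DKO library and 57.1 RPKM in the p53 KO library, 4.24-fold lower. Mfng, a sugar transferase that tunes Notch ligand choice, was at 13.7 RPKM in the Utx/p53 DKO library and 51.5 RPKM in the p53 KO library, 3.75-fold lower. The level of its relative Rfng, chosen with its value known, was 3.06 RPKM in the Utx/p53 DKO library and 3.04 RPKM in the p53 KO library. The coactivator gene Maml2 (-1.15) and Pofut1, which puts fucose on Notch (-1.06), completed the named genes. With the gfold constants, all of these named lower genes kept their direction, but Ccnd1, Znrf3, Maml2 and Pofut1 were within 2-fold.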

How the data were processed

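The labels' genotype grouped 1 Utx/p53 DKO and 1 p53 KO RNA-seq library of LSK cells. Per the labels' protocols, oligo-dT selected RNA was amplified with a SMART cDNA kit. The submitters' processing notes list TopHat2 2.1.0, bcl2fastq 1.8.4 and build mm9. Per the file headers, gfold 1.1.4 wrote the table of 28344 RefSeq transcripts with constants of 1.30144 (p53 KO) and 1 (Utx/p53 DKO). The authors deposited RPKM for each library, their log2 fold change, the GFOLD value (also log2), and an E-FDR q-value that was 1 throughout. The header names WT-LSK (p53 KO by its title) first and KO-LSK second, which assigned the RPKM columns, and each column gave whole reads with its own library's total. Strandedness and the handling of reads that map to several places are not given in the sources used here.

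Each symbol was represented by its transcript with the highest mean RPKM. Whole reads were recovered by searching lengths of 15 to 30000 bases for those giving whole reads in both columns and the authors' log2 fold change: 97.4% of 24644 transcripts with reads had 1 solution. On simulated data 573 of 600 had 1 solution, all correct. Ratio intervals (Clopper-Pearson) and level intervals (Poisson) are exact, at 95%, and cover counting error only; the floor was 3 reads. A count test would compare 2 libraries rather than genotypes and was not made. The members, lists and families were chosen with earlier results of these data known. All members were named, and of the other pathway lists up to 4 genes past 2-fold with the largest absolute difference. Marker lists were given by counts, sums and defining genes (Kit, Ly6a, Cdh5 and Kdr); other markers, and Notch1, Tcf7 and the relatives of members, were named after their values were seen. Upstream sequences came from the RefSeq GRCm38.p6 table, which held 27 of the 39 genes, at the start nearest to that of the same transcript in GENCODE M21. Python 3.11.15, numpy 2.4.6, pandas 2.3.3, scipy 1.17.1 and matplotlib 3.10.9 were used. Alternatives changed the pseudocount, filter, scaling, transcript choice and fold rule.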

Additional observations from a re-analysis of the deposited data

How the results depend on the processing

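The count of genes at least 2-fold lower was 4 as reported. It was 1 with a pseudocount of 5 and with a 3-fold rule (Tcf7l2), 2 with the gfold constants and 11 with a 1.5-fold rule. It lay between 3 and 6 under the other settings: a pseudocount of 0.1, no filter, a mean of at least 5 RPKM, centring on the all-gene median, equal totals, equal upper quartiles, summed transcripts, and the 2-fold rule with an interval excluding 1. The count of higher genes, 0 as reported, was 1 (Dtx4) with a pseudocount of 0.1, after centring, with equal upper quartiles, with the gfold constants and with the 1.5-fold rule. The median difference, -0.54 as reported, was -0.22 with a pseudocount of 5, -0.34 with no filter, -0.30 after centring and -0.0503 with the gfold constants. It lay between -0.74 and -0.43 under the others. The all-gene median was -0.24 as deposited, 0 after centring and 0.28 with the gfold constants. It was -0.55 with equal totals and -0.10 with equal upper quartiles. Of the 11356 measured genes, 995 were lower after centring (3 of the 25) and 712 with the gfold constants (2). With equal totals 2709 were lower (6 of the 25), and 1251 with equal upper quartiles (4). Higher were 1094, 1873, 498 and 949 in the same order. Over all settings the log2 difference was between -3.21 and -2.02 for Tcf7l2, -1.79 and -0.88 for Smad3, -1.58 and -0.80 for Eng and -1.55 and -0.66 for Smad5. For single genes, 133 of the alternative values moved by less than the counting interval reaches on average to either side, and 82 by more. These counts include Gsk3b, which has no interval of its own. Part of the 133 could not move at all. The filter settings leave each gene's difference unchanged, and summing transcripts changes nothing for genes with 1 transcript. The 133 is therefore no measure of stability. No called gene turned its direction. No paired analysis was possible because there was 1 library per genotype. For the same reason the spread between mice is unknown. Depth limits the 14 genes below the filter: Smad6, Hes1, Hey1, Dll1, Dtx1 and Notch4 had at most 12 reads in either library.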
